A study of Mus musculus with 12 samples.

Results

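The genes described here are 8 genes through which striatal projection neurons are usually recognised: Drd2, Adora2a, Penk, Tac1, Ppp1r1b, Pde10a, Rgs9 and Adcy5. They were chosen by name, and are 8 of the 20504 genes counted over coding sequence (CDS) and of the 23352 genes counted over exons. All 8 were found in both tables and passed the limit of a mean of 37 counts per library in every comparison. The libraries came from 6 adult mice, aged 3 months, that carried both Camk2a-Cre and the RiboTag allele, which attaches an HA epitope to the ribosomal protein Rpl22 wherever Cre is active. The Camk2a promoter directs Cre mainly to principal excitatory neurons of the forebrain. Mice A and B are labelled untreated and, according to the methods of the study, received the vehicle by gavage, whereas mice C and D received 100 mg/kg of AZD-8055, a kinase inhibitor of mTOR, 1 h before death. Each of these 4 mice gave a ribosome footprint library and a poly(A) RNA-Seq library from the same frontal lobe. Mice E and F, labelled untreated, each gave an RNA-Seq library of the input lysate and another of the RNA bound to immunoprecipitated HA-tagged ribosomes (IP). The groups therefore hold 2 mice each. The errors below are standard errors of edgeR's fit, which pools variation over genes, and are not the spread of a gene between 2 animals. Unless stated, the fits do not pair libraries of the same mouse.

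Striatal projection neurons are the GABAergic output neurons of the striatum and integrate glutamatergic input from the cortex with dopamine from the midbrain. They form an indirect pathway, whose neurons carry the dopamine receptor encoded by Drd2 and the adenosine receptor encoded by Adora2a and make enkephalin from Penk, and a direct pathway, whose neurons carry Drd1 and make substance P from Tac1. Both receptor systems act on cAMP. Adcy5 encodes the main adenylyl cyclase of the striatum, Pde10a a phosphodiesterase that degrades cyclic nucleotides, Rgs9 a GTPase-activating protein that shortens signalling by inhibitory G proteins, and Ppp1r1b the phosphoprotein that inhibits a protein phosphatase after dopamine has raised cAMP.

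On the GRCm38.p6 assembly, Penk lies on chromosome 4 from 4133536 to 4138815, Tac1 on chromosome 6 from 7555061 to 7562978, Drd2 on chromosome 9 from 49340360 to 49408177 and Adora2a on chromosome 10 from 75316877 to 75334792. Ppp1r1b and Rgs9 share chromosome 11, at 98348406 to 98357796 and 109225348 to 109298181, whereas Adcy5 lies on chromosome 16 from 35154494 to 35305743 and Pde10a on chromosome 17 from 8525187 to 8986648. RefSeq windows of the 250 bases before the annotated start were found for 5 of the 8 genes (Tac1, Drd2, Rgs9, Adcy5 and Pde10a). They were searched on both strands for 6 short motifs because RNA of the 8 genes differed in the same direction between the groups of brains, as described further on. The GC box (GGGCGG) was present in a window of all 5 genes, against 32.74% of 32851 windows genome-wide. Here and below a gene counted if any of its windows matched, whereas the percentages are of single windows, so the 2 are not like measures. The CCAAT box was present for 3 genes (33.85% of windows), TGACG, the core of the cAMP response element, for Tac1 alone (17.77%), the TATA box (TATAAA) for Rgs9 alone (12.37%) and the E-box (CACGTG) for Tac1 alone (6.02%). The complete palindromic element TGACGTCA, which contains TGACG on both strands, was present in none of these windows and in 1.55% of all windows. The windows of Tac1, at chr6:7554811-7555060 on the plus strand, and of Rgs9, at chr11:109298182-109298431 on the minus strand, are shown because between them they hold each motif that was found, and capitals mark the matches on either strand.
Tac1: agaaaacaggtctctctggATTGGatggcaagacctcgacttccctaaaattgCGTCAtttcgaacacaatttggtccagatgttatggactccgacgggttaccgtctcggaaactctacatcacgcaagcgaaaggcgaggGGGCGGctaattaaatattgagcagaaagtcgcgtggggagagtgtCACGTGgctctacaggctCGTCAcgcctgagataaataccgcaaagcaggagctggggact
Rgs9: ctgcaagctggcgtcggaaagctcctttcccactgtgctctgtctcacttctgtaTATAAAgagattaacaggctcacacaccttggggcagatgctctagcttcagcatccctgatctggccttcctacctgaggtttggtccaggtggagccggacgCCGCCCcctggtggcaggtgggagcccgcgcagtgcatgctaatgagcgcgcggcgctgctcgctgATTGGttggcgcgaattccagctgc
These matches describe the letters of the windows and were not tested against any measurement.

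Each of the 8 genes was detected in each library. RNA-Seq libraries held 16796999 to 27878212 exon counts and 9309496 to 15585831 CDS counts, and footprint libraries held 3503873 to 9259938 CDS counts. The smallest count of any of the 8 genes was 71, for Drd2 in the footprints of mouse C, which corresponds to 20.3 CPM (counts scaled to the same library total) with an exact 95% binomial interval of 15.8 to 25.6 that covers counting error only. Levels are compared here within a gene and not between genes, since no transcript lengths were used.

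The first comparison asked how RNA of these genes was represented on the tagged ribosomes. The projection neuron genes did not move as a group in the IP: Pde10a and Drd2 were depleted more than 2-fold, Adcy5 and Rgs9 were lower by less than 2-fold, Ppp1r1b was higher by less than 2-fold, and Penk, Tac1 and Adora2a did not pass the test. In all, 0 of the 8 genes were called higher and 2 were called lower, at an adjusted p under 0.05 in edgeR's quasi-likelihood test together with a fold change over 2. Over all 13254 genes tested, 11.7% were called higher and 21.8% lower, and 9538 had an unadjusted p under 0.05 in edgeR. The share of all genes whose inputs and IPs did not overlap is not given here.

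Among the receptors, Drd2 measured 581 and 427 normalized exon counts (counts divided by the size factor of the library) in the inputs of mice E and F, and 348 and 158 in their IPs. The IP values lay below both inputs, with a log2 change of -1.12 ± 0.35 (SE, adjusted p = 0.0288 in edgeR's quasi-likelihood test). Adora2a, which is carried by the same indirect-pathway neurons, had input counts of 882 and 921 against IP counts of 1043 and 588, so that the IPs lay on either side of the inputs and the log2 change of -0.27 ± 0.25 did not pass the test (edgeR adjusted p = 0.373).

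Of the neuropeptide precursors, Penk had input counts of 5132 and 4250 against IP counts of 9423 and 5667. For Tac1, input counts of 923 and 933 stood against IP counts of 1710 and 1064. For both genes the 2 IP values lay above the 2 input values, but the IPs differed widely from each other, and the log2 changes of 0.57 ± 0.24 for Penk and 0.46 ± 0.21 for Tac1 had edgeR adjusted p-values of 0.0704 and 0.0972. The model that includes the mouse as a block gave edgeR adjusted p-values of 2.04e-09 for Penk, 8.98e-05 for Tac1 and 0.00749 for Adora2a. All 3 changes stayed under 2-fold. Both mice had IP above input for Penk and Tac1. For Adora2a they disagreed in direction (log2 ratios of 0.24 and -0.65 for E and F, standard deviation 0.63). The blocked fit still gave Adora2a a standard error of 0.11. These blocked p-values therefore do not measure how well the enrichment repeated between mice. DESeq2 without the block gave adjusted p-values of 0.00783 for Penk and 0.0370 for Tac1.

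Among the signalling proteins, Ppp1r1b had normalized exon counts of 5618 and 4457 as input against 11320 and 8484 as IP, a log2 change of 0.86 ± 0.17 (edgeR adjusted p = 0.00469). Pde10a fell from 5447 and 5533 to 2221 and 1781, a log2 change of -1.57 ± 0.12 (edgeR adjusted p = 1.30e-04). These 2 genes changed in opposite directions, although both are expressed by projection neurons of either pathway. Adcy5, which makes cAMP, had input counts of 7383 and 5891 against IP counts of 4868 and 3009, a log2 change of -0.87 ± 0.23 (edgeR adjusted p = 0.0150). For Rgs9, input counts of 3259 and 2443 stood against IP counts of 2241 and 1457, a log2 change of -0.74 ± 0.23 (edgeR adjusted p = 0.0259).

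The enrichment differed between the 2 mice in the same direction for each of the 8 genes. For Adora2a, the log2 ratio of IP to input was 0.24 for mouse E but -0.65 for mouse F. The ratios of mice E and F were 0.89 and 0.19 for Tac1, -0.74 and -1.44 for Drd2, and 1.01 and 0.93 for Ppp1r1b, which differed least. The ratio was lower in mouse F than in mouse E for 8 of the 8 genes, with a median difference of -0.415 on the log2 scale, and for 25 of 29 other striatal genes, with a median difference of -0.277. For comparison, it was lower in mouse F for 8 of 14 genes of cortical excitatory neurons (median -0.0361) and for 51.7% of 13248 genes (median -0.00898). It was lower for 8 of 11 interneuron genes (median -0.207) and 3 of 5 microglial genes (-0.0818). It was lower for 0 of 7 astrocyte genes (0.316), 0 of 6 oligodendrocyte genes (0.2) and 0 of 4 endothelial genes (0.732). The part of these cells in the difference was not tested. With 1 IP per mouse, a difference between animals and a difference between immunoprecipitations cannot be told apart.

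**Figure D1:**
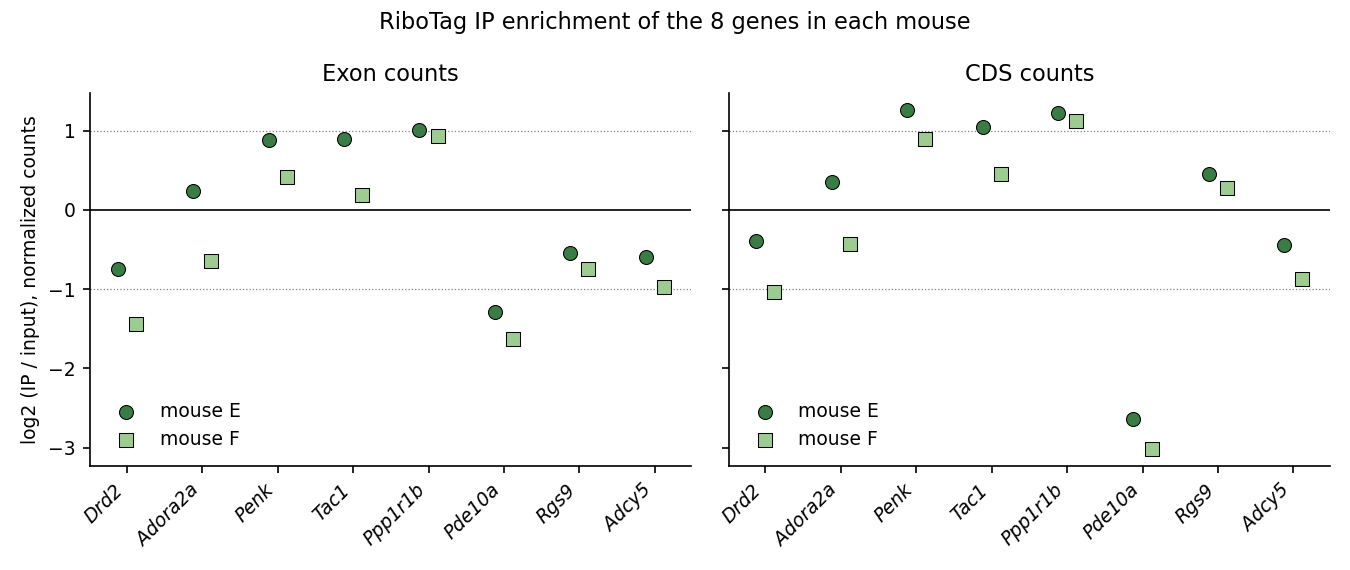
Enrichment of the 8 genes in the RiboTag IP, with the gene on the horizontal axis and the log2 ratio of IP to input in size-factor-normalized counts on the vertical axis. Circles are mouse E and squares mouse F, the left panel uses exon counts and the right panel CDS counts, and dotted lines mark a 2-fold difference. Mouse F lies below mouse E for each gene, and Rgs9 lies below 0 in the exon panel and above 0 in the CDS panel.

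The IP result depended on which part of the transcript was counted. Exon counts include the untranslated regions, whereas CDS counts do not. For Rgs9, the log2 change of IP against input was -0.74 with exon counts and 0.25 ± 0.19 with CDS counts, so that its direction was reversed. Exon counts exceeded CDS counts by 0.85 and 0.84 on the log2 scale for the input libraries, but by 0.29 and 0.34 for the IP libraries. This shift of -0.529 from input to IP lay at percentile 0.288 of 10082 genes, whose median shift was 0.291. Pde10a moved the other way, since exon counts exceeded CDS counts by 1.88 and 2.04 before and by 3.66 and 3.94 after the immunoprecipitation, and its mean shift of 1.84 lay at percentile 97.8. The IPs of Pde10a therefore had relatively fewer CDS counts, and its log2 change with CDS counts was -2.94 ± 0.17. For the other 6 genes the mean shift was between 0.0481 (Penk) and 0.352 (Adcy5). With CDS counts Ppp1r1b passed the fold limit, at 1.05 ± 0.20 on the log2 scale, and Drd2 did not, at -0.77 ± 0.29. Penk and Tac1 then had edgeR adjusted p-values of 0.00101 and 0.0142, with changes under 2-fold.

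Marker lists of other cells show what the IP retained. Of 14 genes of cortical excitatory neurons, 6 rose and 0 fell, with a median log2 change of 0.84 and the largest changes in Nrgn (2.09) and Emx1 (1.83). Of 12 interneuron genes, which include the GABA-synthesising enzymes that projection neurons also express, 0 rose and 11 fell (median -2.25), and of 7 astrocyte genes 0 rose and 5 fell (median -3.01). All 6 genes of oligodendrocytes, 5 of microglia and 4 of endothelium fell. The median of the 8 projection neuron genes was -0.50 and that of all genes -0.03. Of 29 other striatal genes tested, 1 rose (Tmem158, 1.36) and 2 fell (Gpr52, -1.21, and Ebf1, -2.61), with a median of -0.17. Drd1, the receptor of the direct pathway, named for its role, had a log2 change of -0.18 ± 0.18 (edgeR adjusted p = 0.412). Of 39 other genes of dopamine and cAMP signalling, 4 rose, led by Rgs14 (1.13) and the protein kinase A subunit Prkar1b (1.04), and 2 fell, the adenylyl cyclases Adcy9 (-1.44) and Adcy3 (-1.17), with a median of 0.18.

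The second comparison concerned translation efficiency (TE), the ratio of footprint to RNA counts over the CDS after division by size factors, in mice A and B. The 8 genes spanned a wide range of TE. Footprints were called lower than RNA for 3 of them, the receptors Drd2 and Adora2a and the cyclase Adcy5, and higher for 1, the phosphodiesterase Pde10a. Over all 11891 genes tested, 17.5% were called lower and 13.3% higher.

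On the log2 scale, the TE of Drd2 was -2.07 for mouse A and -1.83 for mouse B, at percentile 3.58 of the genes with a TE. Adora2a had -1.53 and -1.86, and Adcy5 had -1.79 and -1.73. For these 3 genes, footprints were lower than RNA by -1.93 ± 0.12, -1.65 ± 0.11 and -1.72 ± 0.08 on the log2 scale (edgeR adjusted p = 4.95e-09, 1.31e-08 and 5.19e-10). Rgs9 had -0.64 and -0.60, which passed the test (edgeR adjusted p = 5.87e-06) but not the 2-fold limit.

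The peptide precursors had higher TE, at 0.48 and 0.59 for Penk and 0.76 and 0.74 for Tac1. Both passed the test (edgeR adjusted p = 1.33e-05 and 9.38e-07) with changes under 2-fold. Ppp1r1b lay near the typical gene, at -0.09 and -0.07 (edgeR adjusted p = 0.659). Pde10a had the highest value of the 8, at 1.12 in both mice, and footprints above RNA by 1.16 ± 0.07 on the log2 scale (edgeR adjusted p = 6.06e-09). In mice A and B the order from Pde10a through Tac1, Penk, Ppp1r1b and Rgs9 to the 3 lowest genes was the same. Among these 3, Drd2 lay below Adcy5 in both mice, whereas the range of Adora2a overlapped both and its place could not be told.

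Other striatal and signalling genes are given for comparison. Of 28 other striatal genes tested, 6 had footprints called above RNA and 2 below, with a median of 0.15. The lower genes were Rxrg (-1.85), a retinoid receptor, and Syndig1l (-1.79), and the largest higher values were those of Spock3 (1.40) and Pdyn (1.36), the precursor of dynorphin in the direct pathway. Of 39 other genes of dopamine and cAMP signalling, 13 were called above and 2 below, with a median of 0.87 against -0.31 for the 8 projection neuron genes and -0.01 for all genes. Among the largest values were those of the transcription factor Creb1 (2.10), the RGS protein Rgs4 (1.97) and the protein kinase A subunit Prkacb (1.62).

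**Figure D2:**
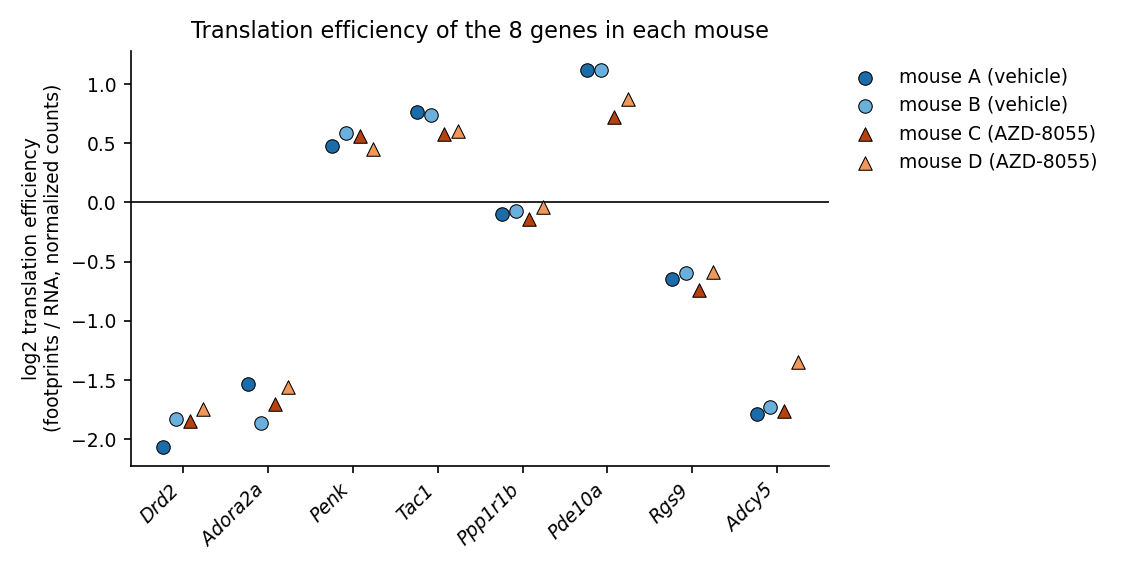
Translation efficiency of the 8 genes, with the gene on the horizontal axis and the log2 ratio of footprints to RNA in size-factor-normalized CDS counts on the vertical axis. Circles are vehicle mice A and B and triangles AZD-8055 mice C and D. Drd2, Adora2a and Adcy5 lie below -1 in each of the 4 mice, and Pde10a and Tac1 are the genes whose AZD-8055 mice both lie below both vehicle mice.

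The third comparison asked whether AZD-8055 changed translation of these genes. TE changed for 0 of the 8 genes at an adjusted p under 0.05 and a fold change over 2, and DESeq2 called 0 as well. At an unadjusted p under 0.05, 1 of the 8 genes passed in edgeR and 1 in DESeq2, in each case Pde10a. Over all 11797 genes tested, 0.00848% were called higher and 0.297% lower, and 796 genes had an unadjusted p under 0.05. Pde10a, the gene with the highest TE of the 8, had a log2 TE of 1.12 and 1.12 in the vehicle mice and 0.72 and 0.87 in the AZD-8055 mice, a difference of -0.32 ± 0.11 (edgeR adjusted p = 0.432). Tac1 had 0.76 and 0.74 in the vehicle mice and 0.58 and 0.60 in the AZD-8055 mice, a difference of -0.16 ± 0.12 (edgeR adjusted p = 0.846). For these 2 of the 8 genes the AZD-8055 mice lay below the vehicle mice without overlap, as they did for 21.6% of 9310 genes. For the other 6 genes the groups overlapped, and the differences ranged from -0.02 (Penk) to 0.23 (Adcy5) with standard errors of 0.10 to 0.18. Of the 28 other striatal genes and the 39 other signalling genes tested, 0 changed in TE, with median differences of -0.02 and -0.11.

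RNA of the 8 genes was higher in the AZD-8055 mice than in the vehicle mice for 8 of 8 genes, by 0.16 to 0.39 on the log2 scale, and 0 of the 8 passed an adjusted p under 0.05 in edgeR or in DESeq2. At an unadjusted p under 0.05, 7 of the 8 genes passed in edgeR and 7 in DESeq2, with Tac1 as the exception, while 1004 of all 12182 genes passed in edgeR. At an adjusted p under 0.05, 0.0575% of all genes were called higher and 0.0903% lower. The median difference was 0.22 for the 8 genes and -0.003 for all genes. For each of the 8 genes both AZD-8055 mice lay above both vehicle mice in normalized counts, which was so for 23.6% of all genes. The 8 genes were measured in the same 4 brains and are not independent replicates of the treatment. In bulk tissue such as this, a different share of cells of a type and a different amount of RNA per cell cannot be told apart.

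Adora2a, with the largest difference, measured 549 and 625 normalized CDS counts in vehicle mice A and B and 758 and 802 in AZD-8055 mice C and D, a log2 difference of 0.39 ± 0.08 (edgeR adjusted p = 0.0867). Pde10a measured 880 and 821 in the vehicle mice and 1160 and 1057 in the AZD-8055 mice, a log2 difference of 0.36 ± 0.07 (edgeR adjusted p = 0.0724). The phosphodiesterase was thus the member with the smallest adjusted p, and it was called with total-count scaling (edgeR adjusted p = 0.0478). Without the count limit both Pde10a (edgeR adjusted p = 0.0134) and Adora2a (0.0139) were called. Drd2 measured 470 and 466 in the vehicle mice and 546 and 592 in the AZD-8055 mice (0.26 ± 0.08), and Penk measured 4750 and 4193 and then 4799 and 5408 (0.17 ± 0.07), so that mice A and C were nearly level for the enkephalin precursor. Of 29 other striatal genes, 27 were higher and 2 passed the test, among them Scn4b (0.37 ± 0.07, edgeR adjusted p = 0.0401), a sodium channel subunit. Their median was 0.20. Of 39 other genes of dopamine and cAMP signalling, 32 were higher (median 0.099) and 0 passed the test. RNA was higher for 49% of all genes.

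Footprints of the 8 genes were likewise higher in the AZD-8055 mice, by 0.02 (Tac1) to 0.49 (Adora2a) on the log2 scale with a median of 0.23, and 0 of the 8 passed an adjusted p under 0.05 in edgeR or DESeq2. For Drd2 and Adora2a, DESeq2's filter on low counts gave no adjusted p. At an unadjusted p under 0.05, 5 of the 8 genes passed in edgeR and 4 in DESeq2, while 1369 of all 10695 genes passed in edgeR. At an adjusted p under 0.05, 0.0468% of all genes were called higher and 0.982% lower. For 7 of the 8 genes, Tac1 being the exception, both AZD-8055 mice lay above both vehicle mice, which was so for 20.2% of all genes. Footprints were higher for 25 of 28 other striatal genes (median 0.18) and 20 of 39 signalling genes (0.003), against 50.2% of all genes. Adcy5 measured 1042 and 1107 normalized footprint counts in the vehicle mice and 1267 and 1636 in the AZD-8055 mice, a log2 difference of 0.45 ± 0.12 (edgeR adjusted p = 0.178). Tac1 measured 939 and 850 in the vehicle mice and 951 and 864 in the AZD-8055 mice, and its direction was reversed without the count limit (-0.01), without mouse B (-0.01) and without mouse C (-0.03). Without mouse C, 5 of the 8 genes (Adora2a, Penk, Ppp1r1b, Rgs9 and Adcy5) passed the test and were higher in mouse D. In that fit mouse D was the sole treated animal and was assumed to vary like the vehicle mice, and 355 genes were called higher and 482 lower in all.

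**Figure D3:**
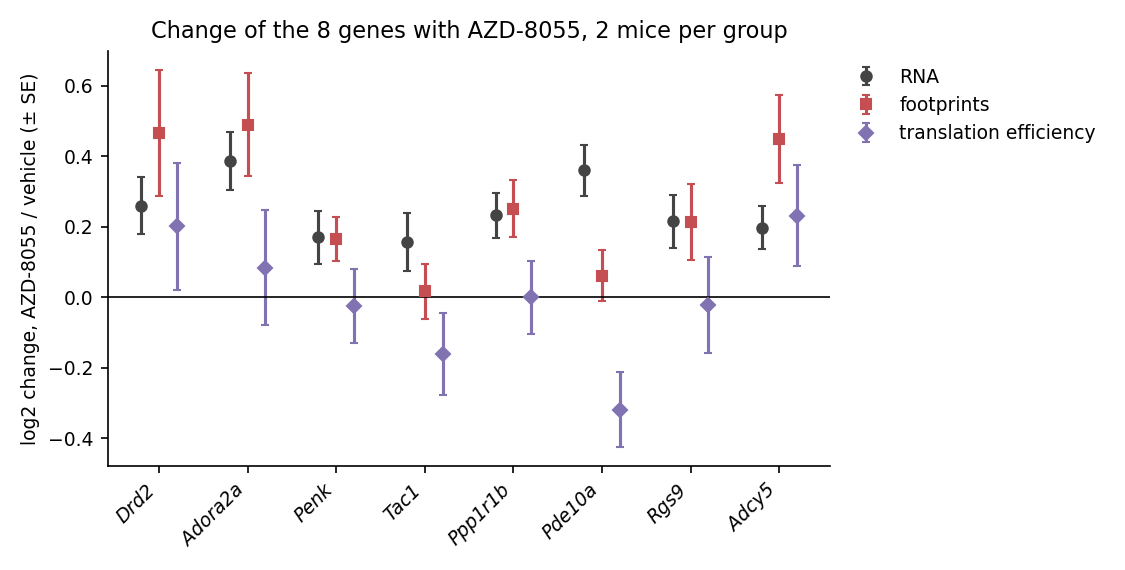
Change of the 8 genes with AZD-8055, with the gene on the horizontal axis and the log2 change of AZD-8055 mice against vehicle mice on the vertical axis. Circles are RNA, squares footprints and diamonds translation efficiency, each with its standard error from edgeR for 2 mice per group. RNA lies between 0.16 and 0.39 for each gene, and none of the values passed an adjusted p under 0.05.

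Levels of the projection neuron genes also differed between mice that had received no AZD-8055. In exon counts normalized over the 6 libraries that were not IPs, Penk measured 5114 and 4293 in inputs E and F, 9140 and 8193 in vehicle mice A and B, and 9396 and 10370 in AZD-8055 mice C and D. Ppp1r1b measured 5599 and 4502, then 8624 and 8787, and then 10170 and 10450. Inputs E and F lay below each of the other 4 brains for 8 of the 8 genes, as they did for 21.4% of 13396 genes. The vehicle mice exceeded the inputs by 0.17 (Pde10a) to 0.88 (Penk) on the log2 scale, and for 7 of the 8 genes, Pde10a being the exception, this was larger than the difference between AZD-8055 and vehicle mice on the same scale (0.17 to 0.32). The difference between the untreated sets was not tested because the IP experiment and the drug experiment were separate sets of libraries, and the region dissected for mice E and F was not given separately.

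**Figure D4:**
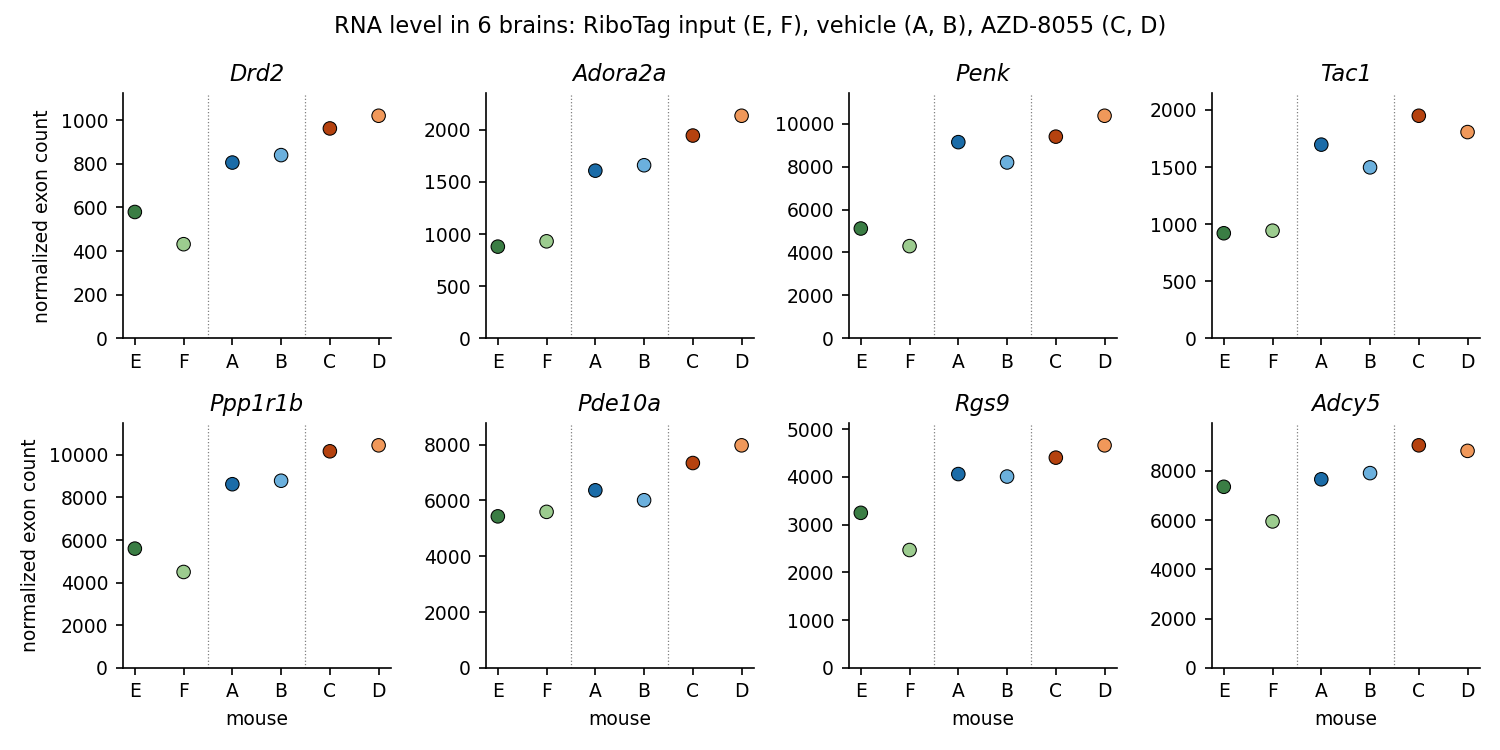
RNA level of the 8 genes in 6 brains, with 1 panel per gene, the mouse on the horizontal axis and the exon count normalized by size factors on the vertical axis, which starts at 0. Each point is 1 library: RiboTag inputs E and F, vehicle mice A and B, and AZD-8055 mice C and D. The inputs are the lowest libraries for each gene, and mice C and D lie above mice A and B.

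For each of the 8 genes the inputs were lowest, the vehicle mice between and the AZD-8055 mice highest. Within a group the genes did not move together. Penk was lower in mouse F than in mouse E (4293 and 5114), whereas Adora2a was higher (930 and 879). The mean of their log2 values, each centred on its own mean, was -0.40 in mouse E, -0.59 in F, 0.14 in A, 0.11 in B, 0.34 in C and 0.39 in D. The Pearson correlation of a gene with the mean of the other 7 was between 0.866 (Pde10a) and 0.995 (Ppp1r1b) over 6 libraries, which share the depth and the dissection of each brain. These correlations include the steps between inputs, vehicle mice and AZD-8055 mice, and were not computed within a group. Among 3326 genes that varied at least as much as the least variable of the 8, the 10 most alike were Mif, Egr4, Rasd2, Map3k11, Fis1, Pde1b, Timm13, Grcc10, E130309F12Rik and Nol3, with correlations of 0.990 to 0.997. Rasd2, which encodes the small GTPase Rhes, and Pde1b are both abundant in the striatum. Of these 10 genes, Pde1b alone was in the gene lists used here. Of the 30 other striatal genes, 17 had a correlation over 0.9 and 3 (Ebf1, Foxp1 and Strip2, named after their values were seen) a negative one, whereas 9.53% of the 3326 genes had a correlation over 0.9. The 30 genes were not held to the limit on variation that selected the 3326, so the sets were not chosen alike.

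Markers of neighbouring tissue differed between the same brains. The summed exon level of the 8 genes was 1470 and 1267 CPM in inputs E and F, 2015 and 1999 CPM in mice A and B, and 2275 and 2394 CPM in mice C and D. That of the 30 other striatal genes was 3456 and 3308, then 4276 and 4167, and then 4679 and 4774 CPM. The 14 genes of cortical excitatory neurons summed to 4123 and 4145 CPM in the inputs, 3683 and 3519 CPM in mice A and B, and 4009 and 3827 CPM in mice C and D, so that they too were higher in the AZD-8055 mice. The 11 genes of thalamus, septum and hypothalamus summed to 59.4 and 77.5 CPM in the inputs, where the striatal sums were also lowest, to 184 and 218 CPM in mice A and B and to 91.3 and 156 CPM in mice C and D, with 1 of the 11 at 0 in mouse C, and 8 of the 9 that were tested were lower with AZD-8055 (median log2 difference -0.77, 0 called). The 5 olfactory bulb genes summed to 38.7 and 73.3 CPM in the inputs, to 71.3 CPM in mouse C and to between 24.9 and 28.8 CPM in mice A, B and D. The 5 choroid plexus genes summed to 9.32 and 47.3 CPM in the inputs, to 650 CPM in mouse B and to between 17.5 and 48.9 CPM in mice A, C and D. The part of the dissection in the differences between treatment groups was not tested.

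**Figure D5:**
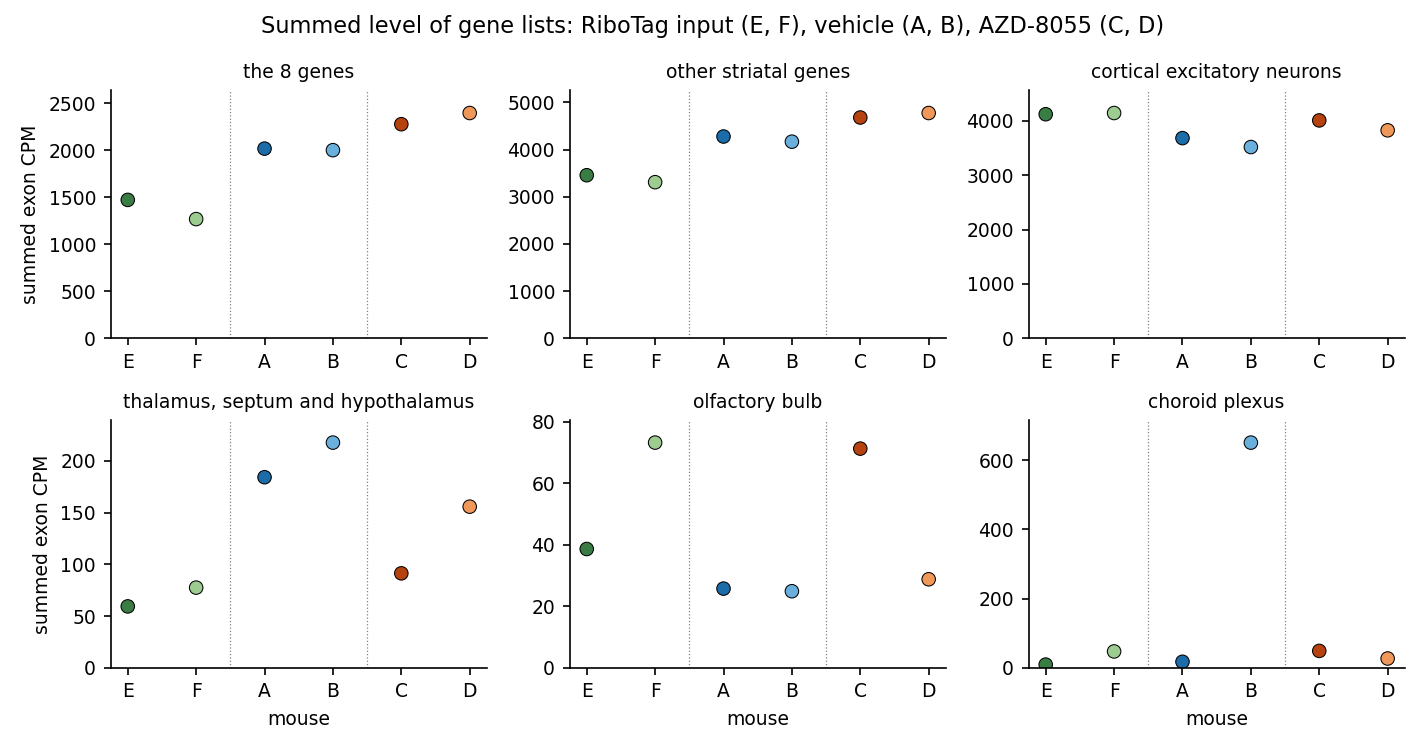
Summed level of 6 gene lists in 6 brains, with the mouse on the horizontal axis and the summed exon CPM on the vertical axis, which starts at 0. Each point is 1 library that was not an IP: RiboTag inputs E and F, vehicle mice A and B, and AZD-8055 mice C and D. The 8 genes and the other striatal genes are lowest in E and F and highest in C and D, the list of thalamus, septum and hypothalamus is lower in C and D than in A and B, and the choroid plexus list is highest in B.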

How the data were processed

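The deposited tables hold raw counts per gene. The authors counted reads with HTSeq after alignment with TopHat2 (the labels also name Bowtie2 and the mm10 build; no versions are given in the sources used here), over CDS for 12 libraries and over exons for the 8 RNA-Seq libraries. For footprints, bases were trimmed from both read ends, poly(A) stretches clipped and rRNA reads removed before alignment. The CDS table holds 27 names altered to date-like entries (0.35% of its counts), none of them described here.

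Counts were fitted with edgeR 4.0.16 (R 4.3.3) by the quasi-likelihood F-test, with TMM scaling and Benjamini-Hochberg adjustment over all genes whose mean count per library was 37 or more. Calls required an adjusted p under 0.05 and, for IP, TE and footprints against RNA, a fold change over 2. TE and enrichment per mouse are ratios of counts divided by DESeq2 1.42.0 size factors, with at least 37 counts per library for a TE. TE change was tested as the interaction of library type and treatment, since the method the study used was not available. The scripts were tested on simulated counts.

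Groups followed the labels, and the mouse letter pairs libraries of the same animal. Deviations from group means correlated between paired libraries (r = 0.253 over genes for mice A and B, 0.24 for C and D, and 0.56 for E and F, 1 value per set of 2 mice). The labels call mice A and B untreated, whereas the methods give vehicle.

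The 8 genes and all lists were chosen with earlier results of these data known. Named genes are the 8, at most 4 called genes per list and comparison with the largest change, the 10 genes most alike across brains, and Drd1; some genes that meet this rule are not reported here. List summaries leave out genes that are among the 8. Alternatives were DESeq2, other scalings, no count limit, no fold limit, the other table, the mouse as block and leaving out each mouse. RefSeq positions and windows are those of GRCm38.p6, the assembly known as mm10.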

Additional observations from a re-analysis of the deposited data

How the results depend on the processing

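The errors rest on 2 mice per group and on variation pooled over genes, and counting error was not separated from the spread between mice. The fewest footprint counts were those of Drd2 (71 to 137 per library) and Adora2a (109 to 232), where depth limits precision most. In the IP, total-count scaling moved the median of all genes from -0.03 to -0.31 on the log2 scale, called 4 of the 8 genes lower and changed the calls over all genes from 1545 higher and 2888 lower to 774 and 3653. Without the fold limit 1 of the 8 was higher and 4 lower, against 4463 higher and 4731 lower of all 13254 genes. With CDS counts 1 of the 8 was higher and 1 lower, against 2493 higher and 3187 lower of 12211 genes. Rgs9 was then reversed in the fit (0.25) and in the mean of the 2 mice (0.36). Leaving out a mouse left no residual degrees of freedom for the IP or for footprints against RNA, so these are values with no test, and Adora2a ranged from -0.74 to 0.11. For RNA, total-count scaling called 1 of the 8 higher, against 9 higher and 20 lower of all 12182 genes. No count limit called 2 of the 8 higher, against 30 higher and 48 lower of 16776 genes. Over all genes DESeq2 called 21 lower against 11. For footprints, no count limit called 1 of the 8 higher, against 60 higher and 204 lower of 19381 genes. Leaving out a mouse, which left 1 mouse in a group, called 0 to 5 of the 8. The 5 were called without mouse C, where the calls over all genes are those given in the Results. Tac1 was -0.015 without the count limit and -0.027 to 0.062 without a mouse. For footprints against RNA, total counts moved the median of all genes to -0.14. Without the fold limit 3 of the 8 genes were higher and 4 lower, against 4349 higher and 4389 lower of all 11891 genes. The causes of these shifts were not tested.

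TE differences near 0 changed sign: Ppp1r1b was 0.0096 with DESeq2, 0.0085 with DESeq2's size factors in edgeR and 0.037 with total counts, and total counts gave 0.012 for Penk and 0.016 for Rgs9. Without a mouse the TE differences ranged from -0.013 to 0.44 for Adcy5, -0.053 to 0.23 for Adora2a, -0.10 to 0.052 for Penk, -0.069 to 0.067 for Ppp1r1b and -0.13 to 0.061 for Rgs9. None of the 8 was called in TE under any alternative.

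With the mouse as a replicate block, 0 of the 8 genes were called higher and 2 lower in the IP, 0 changed in TE and 1 was higher and 3 lower in footprints against RNA, the same numbers as without it. Over all genes the block raised the calls of higher TE from 1 to 7.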
